A study of Mus musculus with 9 samples.

Results

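Hippocampi of mice given Maresin 1 before a tibia fracture were compared with hippocampi of control mice, on 6 of the 9 arrays of the series. The members were chosen by their sample titles alone: 3 arrays titled as surgery with Maresin 1 and 3 titled as control. The remaining 3 arrays, from mice with the fracture and no Maresin 1 named, entered the model to share its estimate of the spread. They also entered the quantile normalisation and the choice of probe set for each gene. Their values are given for reference. All mice were C57BL/6, aged 12 to 14 weeks, with no genetic change named. Tissue of the operated mice was taken 72 h after surgery, and 6 µg of total RNA was labelled for each Affymetrix array. The labels give no dose, route or vehicle for Maresin 1, and do not say whether control mice received a sham operation, anaesthesia or vehicle. The comparison with control therefore covers surgery and Maresin 1 together and cannot tell them apart. The titles call the arrays of a group biological replicates, with nothing further on their source, so the p-values measure the spread between these samples.

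Maresin 1 is a lipid mediator that macrophages form from docosahexaenoic acid, an omega-3 fatty acid abundant in brain. It belongs to the family of mediators that promote the end of inflammation, in part by limiting neutrophil entry and by favouring the uptake of dying cells by macrophages. The receptor Lgr6 and the nuclear receptor Rora have been described as its targets. Peripheral surgery in mice is used as a model of the memory disturbance that can follow operations, in which activation of glia and changes at the blood-brain barrier have been described in the hippocampus. The title of the series asks whether Maresin 1 lessens neuroinflammation in such a model.

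Levels are given as log2 of the quantile-normalised signal plus 16, and a difference is the mean of the Maresin 1 arrays minus the mean of the control arrays on this scale. The scale is that of 1 probe set per gene, so levels of different genes are not compared. The tissue label was checked on 20 defining markers of dentate granule neurons, pyramidal neurons, interneurons, astrocytes, oligodendrocytes, microglia and endothelium. All 20 lay above the level of olfactory receptor genes, 5.86, in every array, from 7.27 for the lowest value to 11.25 for the highest. Olfactory receptor genes serve as a guide to background, because the brain hardly expresses them.

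Control replicates 2 and 3 stood apart from the other 7 arrays in genes of the choroid plexus, the epithelium in the brain ventricles that secretes cerebrospinal fluid. The potassium channel gene Kcnj13 had a deposited signal of 34.1 in control replicate 1, 1739 in replicate 2 and 2836 in replicate 3. With Maresin 1 it was 33.5, 37.8 and 39.7. The folate receptor gene Folr1 was at 46.7, 497.5 and 715.6 in the control arrays and at 62.7, 51.3 and 50.5 with Maresin 1. All 26 measured genes of a choroid plexus list were higher in control replicates 2 and 3 than in control replicate 1, and 0 of them stood at a deposited value of 0 in any array. Their summed normalised signal was 2737, 23380 and 29120 in the control arrays, 3049 to 3437 with Maresin 1 and 3014 to 3414 after surgery alone. Control replicate 1 thus lay near the operated mice in this signal, and the other controls had several times as much. For this reason many lists below are also given against control replicate 1 alone and against control replicates 2 and 3, written as without control replicate 1, and the plot of gene lists shows both medians for the others.

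**Figure D1:**
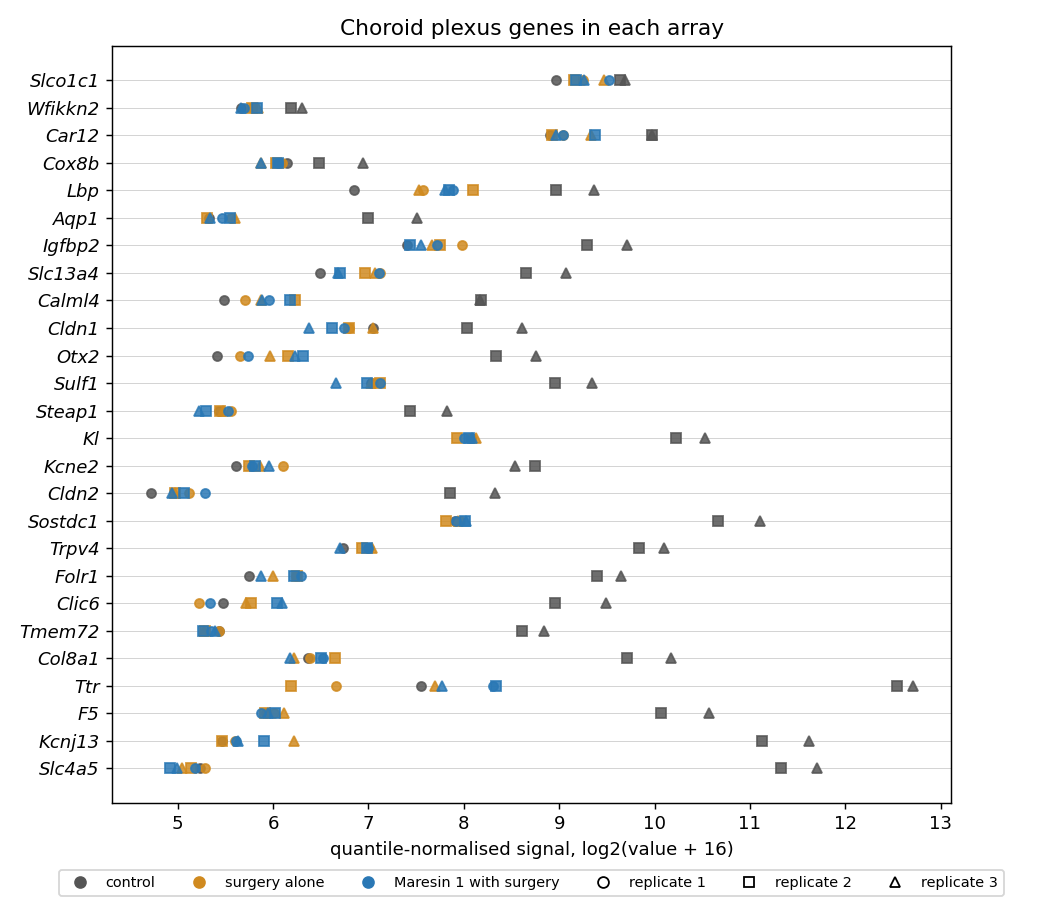
Level of each of the 26 measured choroid plexus genes in each of the 9 arrays (horizontal axis, log2 of the quantile-normalised signal plus 16; rows, genes). Colours mark the groups and symbols the replicate; control replicates 2 and 3 lie to the right of control replicate 1 in all 26 rows, and for Kcnj13 the gap is from 5.47 to 11.12 and 11.62.

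The mean of the 3 Maresin 1 arrays was below the mean of the 3 control arrays for all 26 choroid plexus genes, with a median difference of -1.55. None was called by limma at an adjusted p under 0.05 and 1 lay under 0.10. An unadjusted p under 0.05 was reached by 23, all lower, against 5.61% of all genes. Slc4a5, a bicarbonate transporter of this epithelium, differed by -4.39 (SE 1.18, adjusted p = 0.178), but by -0.20 from control replicate 1. Ttr, the carrier of thyroid hormone in cerebrospinal fluid, was at 7.55, 12.54 and 12.71 in the control arrays and at 8.30, 8.34 and 7.77 with Maresin 1. Its difference was -2.80 (SE 0.99, adjusted p = 0.287) from all controls and 0.58 from control replicate 1. Over the list the median was 0.17 against control replicate 1 alone, with 19 of 26 genes higher, and -2.39 against the other controls. In whole tissue, a difference in the number of cells of a type and one in RNA per cell cannot be told apart. The high values lay in control replicates 2 and 3. The labels do not say how the hippocampi were dissected, and the source of these values was not tested.

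Cldn1, a tight junction gene of the choroid plexus and the meninges, had the smallest p of the list. It stood at 7.05, 8.03 and 8.61 in the control arrays, at 6.74, 6.62 and 6.37 with Maresin 1 and at 6.79, 6.80 and 7.05 after surgery alone. The Maresin 1 arrays lay below every control array. The difference was -1.32 (SE 0.28, adjusted p = 0.0916) from all controls and -0.47 from control replicate 1.

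Between Maresin 1 with surgery and control, 16 of 18820 genes were called, 0.085% of those tested. Of these, 13 rose (0.0691%) and 3 fell (0.0159%), by 1.25-fold to 1.58-fold. The genes that rose were Eapp, Mzt1, Pros1, Cxcl12, Slc16a1, Sesn1, Psma1, Psmd14, Mtx2, Ciao2a, Sar1b, Bpnt2 and Chic2, and those that fell were Zfp580, Tmem121b and Rnf208. All 16 were above the olfactory receptor level, and 15 rest on 1 probe set. The 17th gene by p had an adjusted p of 0.0635. An unadjusted p under 0.05 was reached by 2160 genes, 11.5%, of which 1104 were higher (5.87%) and 1056 lower (5.61%). Groups without overlap were seen for 14.3% of genes, 7.61% higher and 6.71% lower.

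The calls depended on the model, on the scaling of the arrays and on single arrays. None of the 16 was called by limma with only the 6 arrays of both groups (adjusted p 0.109 to 0.155, 1750 genes at an unadjusted p under 0.05). The same held with a constant variance prior (adjusted p 0.197, 1934 genes) and with the replicate number as a block (0.143 to 0.171, 1726 genes). With the choroid plexus score as a covariate 5 other genes were called and none of the 16 (0.0831 to 0.244). A rise or fall below therefore refers to the model over all 9 arrays. With arrays scaled to one median, 38 genes were called, 5 higher and 33 lower, and 17 of them were on the choroid plexus list. With log2 values centred the count was 63, 11 higher and 52 lower, and with no scaling 43, 2 higher and 41 lower. These settings shared 1, 1 and 0 genes with the 16. Without control replicate 1 there were 245 calls, 62 higher and 183 lower, and the 16 were among them. Without control replicate 3 there were 15, of which 10 were shared, and there were 0 without control replicate 2 or without any of the 3 Maresin 1 arrays. Without surgery replicate 1, 2 or 3 the counts were 3, 2 and 0. These arrays bear on the spread alone in these fits, as the values stayed normalised over all 9 arrays. The differences of the 16 genes kept their sign in all of these fits, at 0.25 to 0.60 in size against control replicate 1 alone. Their groups did not overlap, so leaving out arrays or changing the prior could not change a sign. For those fits the kept sign adds no support for the calls.

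**Figure D2:**
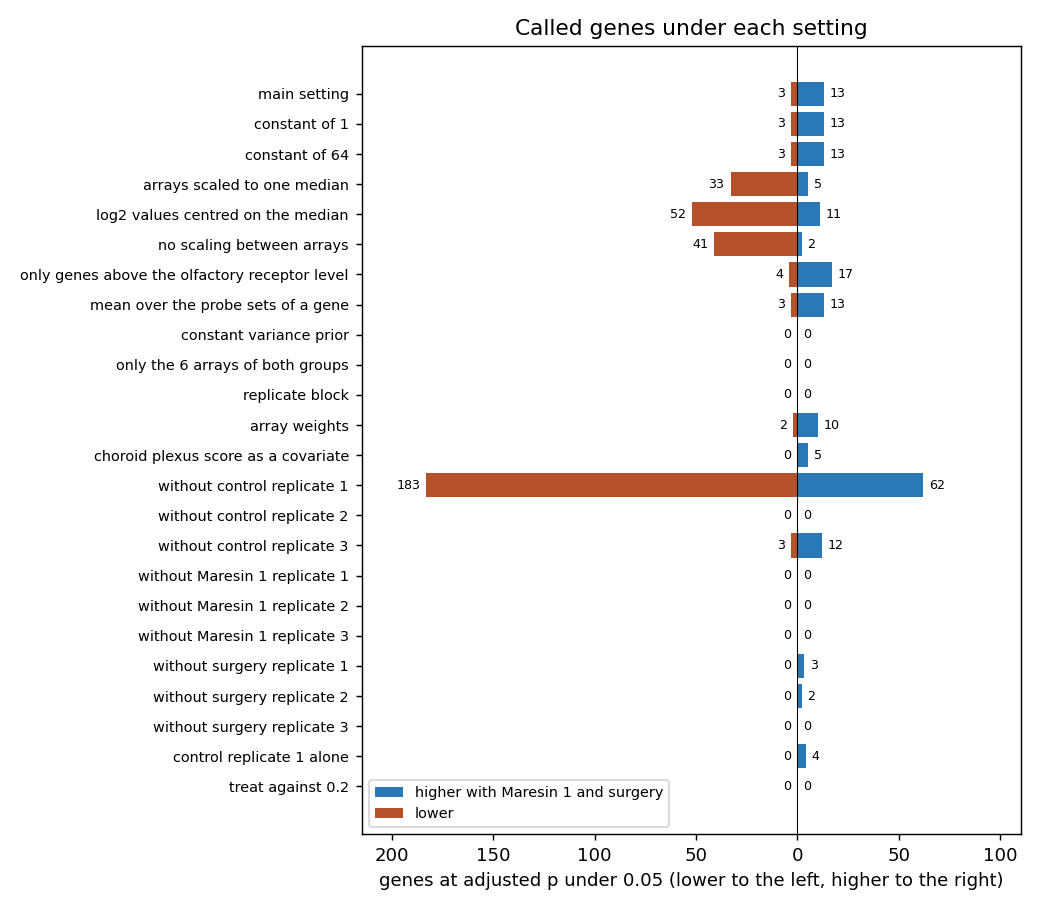
Number of genes called at an adjusted p under 0.05 under each setting (rows), with genes higher with Maresin 1 and surgery to the right of 0 and lower genes to the left. The main setting gives 13 and 3, the settings with another scaling give mostly lower genes, and the setting without control replicate 1 gives 62 and 183.

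Among the genes that rose, Pros1 encodes protein S, a plasma anticoagulant that is also a ligand of the receptors Tyro3 and Mertk on phagocytes. Pros1 was at 6.98, 6.75 and 7.04 in the control arrays and at 7.72, 7.46 and 7.56 with Maresin 1. These groups did not overlap, and the arrays of surgery alone, at 7.29, 7.51 and 7.46, reached into the Maresin 1 range. The rise was 0.66 (SE 0.10, adjusted p = 0.0382), the largest of the 16. Gas6, the other ligand of these receptors, was at 9.90, 10.24 and 10.38 in the control arrays and at 9.94, 9.82 and 9.83 with Maresin 1. Its difference was -0.31 (SE 0.10, adjusted p = 0.225) overall and -0.04 from control replicate 1. The receptor gene Axl differed by 0.17 and the endothelial thrombomodulin gene Thbd by 0.20, and neither was called. Of the 10 measured genes of this list, 3 were higher, 7 lower, and Pros1 alone was called.

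Cxcl12, a chemokine made by endothelium, meninges and some neurons that guides leukocytes and progenitor cells, stood at 8.11, 8.19 and 8.05 in control. With Maresin 1 it was at 8.56, 8.53 and 8.67, above every control array. The rise was 0.47 (SE 0.07, adjusted p = 0.0382), and it was 0.47 from control replicate 1 alone. After surgery alone its values were 8.44, 8.53 and 8.49, at or just below the range with Maresin 1. Its receptor genes Cxcr4 and Ackr3 differed by 0.12 and 0.15 and were not called.

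Slc16a1 encodes the monocarboxylate transporter that carries lactate across endothelium and out of glia. It was at 9.26, 9.17 and 9.29 in control and at 9.79, 9.60 and 9.62 with Maresin 1, a rise of 0.43 (SE 0.07, adjusted p = 0.0382). Slc2a1, the glucose transporter of the blood-brain barrier, differed by 0.24 (SE 0.07, adjusted p = 0.208) without overlap. Emb, a partner protein of monocarboxylate transporters, differed by -0.30 and Ldhb, a lactate dehydrogenase subunit, by 0.15. Over the 15 measured genes of lactate and glucose handling the median was 0.01, with 9 higher and 1 called.

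Sesn1, a p53 target whose product restrains growth signalling through mTORC1, stood at 9.32, 9.34 and 9.41 in control. It was at 9.86, 9.81 and 9.74 with Maresin 1 and at 9.53, 9.68 and 9.72 after surgery alone. The rise from control was 0.44 (SE 0.06, adjusted p = 0.0382). Related members of the list had smaller differences that were not called, 0.17 for Sesn3, 0.26 for the mTORC1 inhibitor Ddit4 and 0.23 for the p53 ubiquitin ligase Mdm2. Of 17 measured genes 11 were higher, against 49% of all genes. Of these, 5 had an unadjusted p under 0.05 in limma, against 5.87% of all genes. The list median was 0.08, which was 0.03 against control replicate 1 alone and 0.11 without it.

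The calls held 2 proteasome subunits. Psma1, a subunit of the outer ring of the 20S core, was at 10.27, 10.18 and 10.32 in control and at 10.56, 10.63 and 10.59 with Maresin 1. Psmd14, the deubiquitinase of the 19S lid, was at 10.31, 10.14 and 10.34 in control and at 10.57, 10.66 and 10.63 with Maresin 1. The rises were 0.33 (SE 0.05) for Psma1 and 0.36 (SE 0.06, adjusted p = 0.0382) for Psmd14. Psma6 of the core and Psmc6, an ATPase of the 19S base, differed by 0.23 and 0.26 without overlap and were not called. In all, 25 of 31 measured proteasome genes were higher, 2 were called, against 0.0691% of all genes called higher. An unadjusted p under 0.05 was reached by 7, all higher, against 5.87% of all genes, and 10 higher genes did not overlap between groups, against 7.61%. The median of the list was 0.08 with all controls, with control replicate 1 alone and without it, against -0.003 for all 18820 genes. The 7 genes of the immunoproteasome and proteasome activators had a median of 0.06 and no call, and 0 had an unadjusted p under 0.05 in limma.

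Further calls were genes of mitochondrial import and of iron-sulphur clusters. Mtx2, metaxin 2 of the outer membrane, which helps insert and import proteins, was at 9.82, 9.55 and 9.85 in control and at 10.23, 10.18 and 10.29 with Maresin 1. The rise was 0.50 (SE 0.07, adjusted p = 0.0382), while its partner Mtx1 differed by -0.19 (SE 0.07, adjusted p = 0.292). Ciao2a, which delivers iron-sulphur clusters in the cytosol, stood at 9.38, 9.49 and 9.44 in control and at 9.88, 9.95 and 9.73 with Maresin 1, a rise of 0.42 (SE 0.07). The lists around these genes had medians near that of all genes. The median was 0.02 for 30 genes of mitochondrial import and 0.01 for 19 genes of iron-sulphur cluster assembly. Complex I had a median of 0.004 over 35 genes, and of 0.01 against control replicate 1 alone and -0.02 without it. At an unadjusted p under 0.05 in limma 4 were higher and 7 lower, against 5.87% and 5.61% of all genes. The complex I members Ndufb9 (0.25) and Ndufs4 (0.24) had adjusted p of 0.0792 and 0.0886.

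Genes of protein export and the Golgi rose singly. Sar1b, the GTPase that starts the COPII coat at the endoplasmic reticulum, was at 10.06, 10.11 and 10.24 in control and at 10.41, 10.53 and 10.54 with Maresin 1, a rise of 0.36 (SE 0.06). The COPII cage genes Sec24c and Sec31a differed in the other direction, by -0.15 and -0.13, and were not called. Over the 21 genes of COPII and export the median was -0.03, and 0.025 against control replicate 1 alone. Bpnt2, a Golgi phosphatase that removes a by-product of sulphation, stood at 9.63, 9.33 and 9.68 in control and at 10.02, 10.07 and 10.07 with Maresin 1. Its rise was 0.51 (SE 0.08, adjusted p = 0.0382). Chic2, which encodes a small palmitoylated protein of vesicles and the plasma membrane, was at 9.49, 9.34 and 9.45 in control and at 9.90, 9.81 and 9.75 with Maresin 1, a rise of 0.40 (SE 0.06).

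Eapp and Mzt1 were the remaining genes that rose. Eapp, whose product binds E2F transcription factors, had the smallest p of all genes. It was at 9.62, 9.53 and 9.66 in control, at 9.93, 9.88 and 9.91 after surgery alone and at 10.03, 10.07 and 10.02 with Maresin 1, so that the groups followed each other without overlap. The rise from control was 0.43 (SE 0.05, adjusted p = 0.0270). Mzt1, a small protein that holds gamma-tubulin ring complexes together, stood at 10.34, 10.23 and 10.39 in control and at 10.72, 10.75 and 10.73 with Maresin 1, a rise of 0.42 (SE 0.06). Of the 13 genes of microtubule nucleation 10 were higher, with a median of 0.06, and Mzt1 alone was called. E2f4 and E2f1 differed by -0.17 and -0.27 and were not called.

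Of the 3 called genes that fell, Zfp580, a zinc finger gene, had the largest difference. It was at 8.94, 9.13 and 9.02 in control and at 8.60, 8.51 and 8.38 with Maresin 1, a difference of -0.53 (SE 0.08, adjusted p = 0.0382). Tmem121b, a gene of a transmembrane protein, stood at 9.024, 9.124 and 9.001 in control and at 8.64, 8.54 and 8.65 with Maresin 1, a difference of -0.44 (SE 0.06). Rnf208, a RING-type ubiquitin ligase gene, was at 10.19, 10.30 and 10.29 in control and at 9.90, 9.98 and 9.93 with Maresin 1, a difference of -0.32 (SE 0.05). Against control replicate 1, whose choroid plexus signal was near that of the operated mice, these differences were -0.44, -0.42 and -0.25. The arrays of surgery alone lay between the groups for Tmem121b and Zfp580, at 8.94, 8.89 and 8.90 and at 8.87, 8.75 and 8.77.

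**Figure D3:**
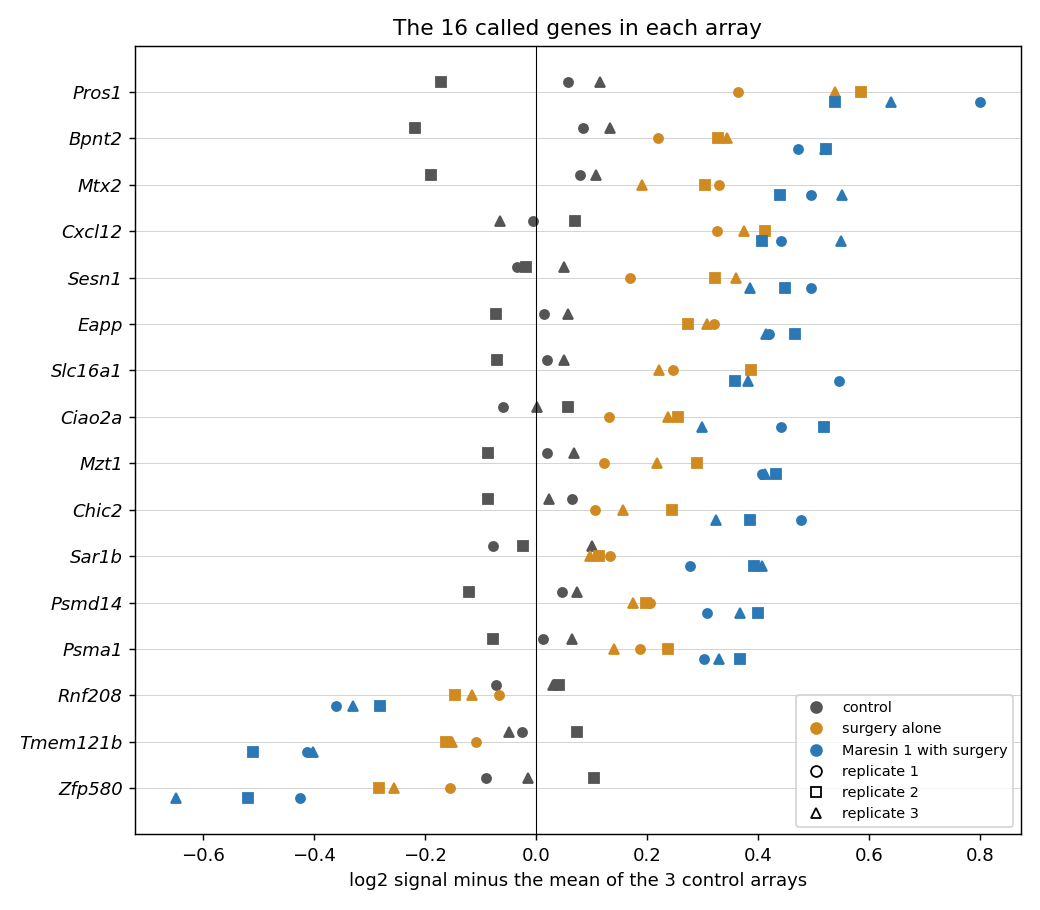
The 16 called genes (rows) in each array, as the log2 signal minus the mean of the 3 control arrays (horizontal axis). Colours mark control, surgery alone and Maresin 1 with surgery, and symbols the replicate; no Maresin 1 array overlaps a control array, with Pros1 at 0.66 and Zfp580 at -0.53 on average.

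After surgery alone, differences of these 16 genes from the same control arrays ran from 0.12 for Sar1b to 0.49 for Pros1 among those that rose with Maresin 1, and from -0.23 to -0.11 among those that fell. Their adjusted p ran from 0.384 to 0.794. The comparison of Maresin 1 with surgery alone gave 0.10 for Cxcl12 and 0.16 for Pros1, up to 0.24 for Sar1b, and -0.30 for Zfp580 and Tmem121b. Its adjusted p for the 16 ran from 0.689 to 0.886 in limma. Of the 16, 13 had an unadjusted p under 0.05 in limma, against 1065 of all 18820 genes. The 16 were chosen with the same Maresin 1 arrays, so this excess is not independent support. These comparisons share arrays with the one described here, so the values stand side by side and are not independent of it.

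The 250 bases before the transcription start were read for the called genes, in the mouse build GRCm38.p6 from RefSeq, and 15 of the 16 had an entry. Sesn1 had 2 entries, of which only the first listed was read. The windows shown were picked after the matches were seen. Those of both proteasome subunits, Sesn1 and Sar1b hold a CCAAT box, and those of 2 genes that fell hold none. That contrast is fixed by the choice. Of the other genes that rose, Pros1, Mtx2, Cxcl12, Eapp, Slc16a1, Ciao2a and Chic2 hold no CCAAT box in their windows. Each window shown runs 5′ to 3′ in the direction of the gene. Capitals mark matches, on either strand, to the motifs searched: the CCAAT box, the ETS element GGAAGT, the antioxidant element TGACNNNGC, the cyclic AMP element TGACGTCA and the E-box CACGTG. Matches of different motifs may overlap, as in Slc16a1.
Psma1 (chr7:114276117-114276366, - strand): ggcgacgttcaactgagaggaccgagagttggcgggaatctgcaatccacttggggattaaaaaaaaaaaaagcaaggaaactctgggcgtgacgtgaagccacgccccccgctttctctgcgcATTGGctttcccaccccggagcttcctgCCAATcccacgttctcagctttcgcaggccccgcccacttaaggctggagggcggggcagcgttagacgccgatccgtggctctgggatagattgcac
Psmd14 (chr2:61711444-61711693, + strand): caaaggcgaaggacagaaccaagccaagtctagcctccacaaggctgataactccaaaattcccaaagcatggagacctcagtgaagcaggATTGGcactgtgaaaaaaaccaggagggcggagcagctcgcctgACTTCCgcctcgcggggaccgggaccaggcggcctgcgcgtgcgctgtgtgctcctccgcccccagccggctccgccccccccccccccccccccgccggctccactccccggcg
Sesn1 (chr10:41810324-41810573, + strand): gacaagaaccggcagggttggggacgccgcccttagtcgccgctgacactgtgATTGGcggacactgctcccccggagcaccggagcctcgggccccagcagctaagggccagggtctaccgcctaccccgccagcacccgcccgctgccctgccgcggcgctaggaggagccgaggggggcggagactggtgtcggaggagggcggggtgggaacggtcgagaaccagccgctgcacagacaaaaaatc
Sar1b (chr11:51763413-51763662, + strand): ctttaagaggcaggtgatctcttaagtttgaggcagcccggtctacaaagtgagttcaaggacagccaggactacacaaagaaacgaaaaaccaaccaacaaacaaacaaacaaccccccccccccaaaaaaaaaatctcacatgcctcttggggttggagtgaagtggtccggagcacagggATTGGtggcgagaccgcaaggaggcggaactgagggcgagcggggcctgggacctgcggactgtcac
Zfp580 (chr7:5051282-5051531, + strand): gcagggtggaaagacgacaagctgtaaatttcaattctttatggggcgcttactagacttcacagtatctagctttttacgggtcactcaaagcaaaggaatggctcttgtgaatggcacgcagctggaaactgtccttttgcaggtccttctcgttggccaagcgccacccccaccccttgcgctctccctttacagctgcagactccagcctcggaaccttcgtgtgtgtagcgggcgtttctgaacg
Rnf208 (chr2:25242679-25242928, + strand): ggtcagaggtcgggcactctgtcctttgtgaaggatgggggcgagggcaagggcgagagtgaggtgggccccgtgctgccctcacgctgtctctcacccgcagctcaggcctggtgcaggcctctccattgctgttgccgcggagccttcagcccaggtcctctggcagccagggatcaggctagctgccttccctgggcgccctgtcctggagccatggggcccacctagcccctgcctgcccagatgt

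The CCAAT box, the recognition element of the factor NF-Y, was in the window of 5 of the 12 genes that rose, 41.7%: Psma1, Psmd14, Sesn1, Sar1b and Mzt1. Psma1 and Mzt1 held it at 2 positions, Psma1 at -126 and at -98 from the start. It was in 0 of the 3 windows of genes that fell. Among genes at an adjusted p under 0.10 it was in 24 of 46 higher genes (52.2%) and in 4 of 24 lower genes (16.7%). The share was 33.8% of all 32851 promoters of the table and 35.9% of the promoters of measured genes above the olfactory receptor level. The E-box CACGTG occurred in 1 window of the genes that rose, that of Slc16a1 (8.3%). The element TGACNNNGC occurred in 2, those of Slc16a1 and Mtx2 (16.7%). Over measured genes above the olfactory receptor level the shares were 8.2% for CACGTG and 11.6% for TGACNNNGC. The median GC content was 64.4% for genes that rose and 65.2% for those that fell, against 60.0% for genes above the olfactory receptor level. A match describes the letters in the window and shows no binding.

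An adjusted p under 0.10 was reached by 91 genes, 0.484% of those tested, 58 higher (0.308%) and 33 lower (0.175%). Their absolute differences ran from 0.19 to 1.32 with a median of 0.34, and 1 gene, Cldn1, differed by 1 or more. Among those that were not called, the largest higher values were those of Stoml3, a stomatin-like membrane protein gene, and Acta2, the actin of smooth muscle. Stoml3 was at 6.90, 7.54 and 7.69 in control and at 8.23, 8.18 and 8.03 with Maresin 1, a difference of 0.77 (SE 0.16, adjusted p = 0.0892). It was lowest in control replicate 1, so the difference was 1.25 from that array and 0.53 from the other controls. Tm4sf1, a tetraspanin-like gene of endothelium, was likewise lowest in control replicate 1, at 8.55, 8.93 and 9.11 in control and at 9.41, 9.42 and 9.54 with Maresin 1. The annexin partner S100a10 differed by 0.44, Igfbpl1, expressed in young neurons, by 0.56, and the ribosomal gene Mrps25 of mitochondria by 0.39.

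Lower values at this level were held by several genes of neurons, while others, such as Igfbpl1 of young neurons, were higher. Vgf, a precursor of secreted neuropeptides, was at 9.79, 9.48 and 9.54 in control, at 9.48, 9.49 and 9.53 after surgery alone and at 9.07, 9.31 and 9.13 with Maresin 1. The difference from control was -0.43 (SE 0.08, adjusted p = 0.0829). Synpo, the actin-binding protein of the spine apparatus, stood at 8.56, 8.57 and 8.49 in control, at 8.58, 8.54 and 8.54 after surgery alone and at 8.29, 8.17 and 8.21 with Maresin 1. The control and surgery arrays overlapped there, and the Maresin 1 arrays lay below all of them, with a difference of -0.32 from control (SE 0.06, adjusted p = 0.0886). Prrt1, an auxiliary protein of AMPA receptors, differed by -0.40 and Cacna1i, a T-type calcium channel gene, by -0.33. All 91 genes at an adjusted p under 0.10 in limma had groups without overlap, against 14.3% of all genes. They were chosen by p on these same arrays, so the lack of overlap adds no support.

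**Figure D4:**
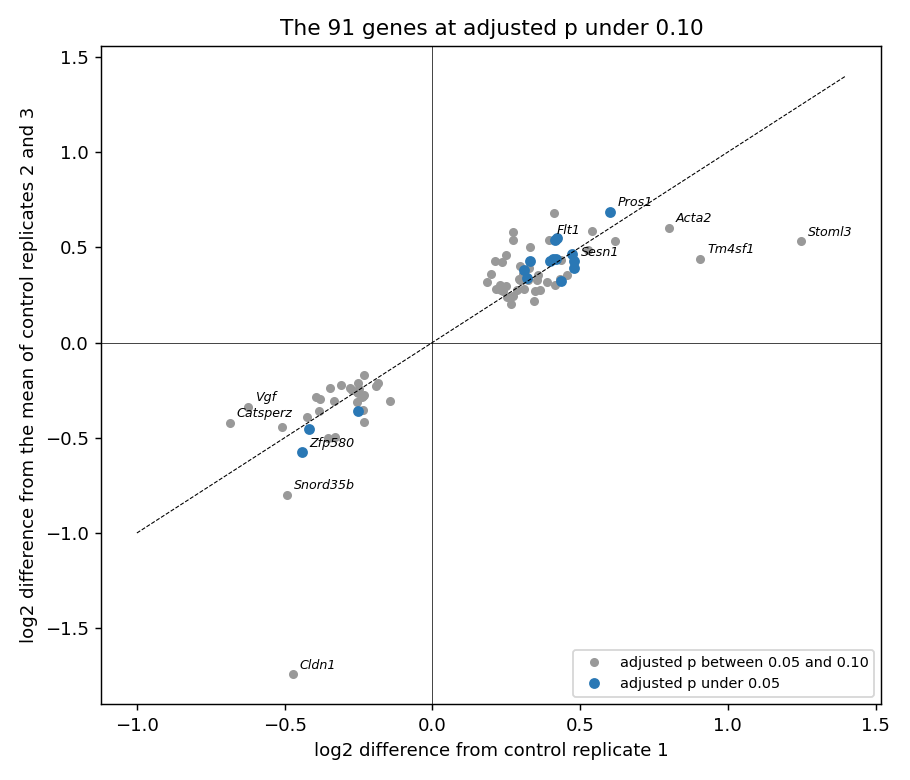
The 91 genes at an adjusted p under 0.10, with the difference of the Maresin 1 mean from control replicate 1 on the horizontal axis and from the mean of control replicates 2 and 3 on the vertical axis (log2). Blue points are the 16 called genes and the dashed line marks equal values; Stoml3 (1.25 and 0.53) and Cldn1 (-0.47 and -1.74) lie farthest from it among the labelled genes.

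The gene lists that follow were read against the background of all genes, of which 49.0% were higher and whose median difference was -0.003. Genes of the vascular endothelium were higher throughout. All 20 measured genes had a higher mean with Maresin 1 than in control, with a median of 0.29. Of these, 0 were called by limma, 11 had an unadjusted p under 0.05, against 5.87% of all genes, and 9 did not overlap, against 7.61%. Flt1, a receptor of vascular endothelial growth factor, was at 8.87, 8.77 and 8.67 in control and at 9.35, 9.01 and 9.43 with Maresin 1, a difference of 0.49 (SE 0.10, adjusted p = 0.0850). Abcb1a, the drug efflux pump of the blood-brain barrier, differed by 0.40 (SE 0.09, adjusted p = 0.113), the organic anion carrier Slco1a4 by 0.39 and the adhesion receptor Adgrf5 by 0.41. All 20 genes were also higher against control replicate 1 alone, with a median of 0.26, and without it, with a median of 0.30.

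The summed normalised signal of the endothelial genes was 7653 to 7728 in control, 8154 to 10140 with Maresin 1 and 9137 to 9975 after surgery alone. Maresin 1 replicate 2 was the lowest of its group. Its list score, the mean over the genes of the difference from the average of the 9 arrays, was -0.10, against 0.22 and 0.11 in the other Maresin 1 arrays and -0.22 to -0.18 in control. The list median of surgery alone minus the same controls was 0.32.

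Pericyte and smooth muscle genes were mixed, with 11 of 16 higher and a median of 0.08. Acta2 was at 7.91, 8.01 and 8.21 in control, at 9.01, 8.41 and 8.71 with Maresin 1 and at 8.84, 8.85 and 8.81 after surgery alone. The difference from control was 0.67 (SE 0.12, adjusted p = 0.0792). The smooth muscle myosin Myh11 differed by 0.39, the pericyte regulator Rgs5 by 0.30 and the myosin light chain Myl9 by 0.28, all without overlap, while the pericyte proteoglycan Cspg4 differed by -0.26. The median was 0.12 against control replicate 1 alone and 0.11 without it. The score of Maresin 1 replicate 2 in this list, -0.10, lay within the control range of -0.22 to -0.04.

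Genes induced by interferon were mostly higher. Of 24 measured genes 20 were higher, with a median of 0.19, and 0 were called in limma. An unadjusted p under 0.05 was reached by 6, against 5.87% of all genes, and 12 higher genes did not overlap, against 7.61%. Gbp7, a guanylate-binding protein gene, was at 6.65, 6.78 and 6.77 in control and at 7.30, 7.09 and 7.09 with Maresin 1, a difference of 0.43 (SE 0.12, adjusted p = 0.176). The antiviral genes Ifit2, Oasl2 and Ifit3 differed by 0.37, 0.32 and 0.31. The list median was 0.12 against control replicate 1 alone and 0.20 without it, and 0.27 for surgery alone against the same controls.

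No classical inflammatory cytokine gene was called. Il1b differed by -0.04 (SE 0.10), Il6 by -0.09 (SE 0.10) and Tnf by 0.05 (SE 0.13), and all of these lay below the olfactory receptor level on average, where a difference was not detectable. The chemokine gene Ccl2 was at 6.04, 6.47 and 6.44 in control and at 5.94, 5.87 and 6.32 with Maresin 1, a difference of -0.28 from all controls and 0.002 from control replicate 1. Il33, an alarmin of oligodendrocytes and astrocytes, was at 9.45, 9.27 and 9.44 in control and at 9.68, 9.86 and 9.82 with Maresin 1, a difference of 0.40 (SE 0.11, adjusted p = 0.175). Over the 23 measured cytokines and chemokines the median was -0.01, which was 0.03 against control replicate 1 alone and -0.055 without it. In the Toll and NF-kB list, with a median of 0.01 over 17 genes, the NF-kB inhibitor Tnfaip3 differed by 0.33 (SE 0.09, adjusted p = 0.185) and the NF-kB subunit Rela by -0.15.

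No microglial marker was called. Of 18 homeostatic genes 14 were higher, with a median of 0.10, and 0 were called in limma. An unadjusted p under 0.05 was reached by 2, both higher, against 5.87% of all genes. The list median was 0.13 against control replicate 1 alone and 0.09 without it. The list score was 0.16 in Maresin 1 replicate 1. In Maresin 1 replicates 2 and 3 it was -0.05, within the control range of -0.10 to -0.04. Itgam, a subunit of complement receptor 3, was at 7.83, 7.72 and 7.95 in control and at 8.18, 7.95 and 8.07 with Maresin 1, a difference of 0.24 (SE 0.09, adjusted p = 0.331). The lipid receptor Trem2 differed by 0.23, Aif1 by -0.08 and the lysosomal Cd68 by -0.01. For 14 activated microglia genes the median was -0.02, with 0.05 against control replicate 1 alone and -0.06 without it, and Apoe, which carries lipids, differed by 0.15 (SE 0.04, adjusted p = 0.197).

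Genes of reactive astrocytes had 14 of 21 higher values and a median of 0.10, which was 0.24 against control replicate 1 alone and 0.03 without it. Gfap, the astrocyte filament, was at 10.75, 10.93 and 10.94 in control and at 11.23, 11.01 and 10.94 with Maresin 1, so that the groups met, with a difference of 0.19 (SE 0.07, adjusted p = 0.330). Osmr, the oncostatin M receptor, differed by 0.42 (SE 0.11, adjusted p = 0.174) and Srgn, a proteoglycan of secretory granules, by 0.42. Lcn2, an acute phase protein that binds siderophores, was at 5.42, 4.95 and 5.08 in control, at 5.47, 7.02 and 7.90 with Maresin 1 and at 5.48, 9.40 and 6.12 after surgery alone. Its values ranged widely within both operated groups, and the difference of 1.65 (SE 0.80, adjusted p = 0.463) was not called.

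The receptors and enzymes of Maresin 1 and related lipid mediators held no call among 23 measured genes, with 11 higher and a median of -0.005. At an unadjusted p under 0.05 in limma 3 were higher and 2 lower, against 5.87% and 5.61% of all genes. Lgr6 was at 6.43, 6.41 and 6.48 in control and at 6.44, 6.27 and 6.17 with Maresin 1, a difference of -0.15 (SE 0.10). Rora was at 9.52, 9.47 and 9.64 in control and at 9.68, 9.43 and 9.64 with Maresin 1, a difference of 0.04 (SE 0.07). The lipoxygenase genes Alox12, Alox15 and Alox5, whose products oxygenate polyunsaturated fatty acids, differed by -0.01, -0.06 and -0.06 at low levels. The epoxide hydrolase Ephx2 differed by -0.13. Ltc4s, the synthase of leukotriene C4, was high in control replicates 2 and 3, the arrays with high choroid plexus signal. It was at 6.18, 7.53 and 7.95 in control and at 6.35, 5.97 and 6.18 with Maresin 1. Its difference was -1.05 from all controls and -0.01 from control replicate 1. Gpr37, a receptor for protectin D1, differed by 0.20 and Gstm4, a glutathione transferase, by 0.18, both without overlap and not called.

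Cytosolic ribosomal protein genes were higher in small steps. Of 66 measured genes 57 were higher, with a median of 0.08. Of these 18 had an unadjusted p under 0.05, against 5.87% of all genes, 24 did not overlap, against 7.61%, and 0 were called by limma. Rpl35a was at 9.46, 9.36 and 9.51 in control and at 9.76, 9.80 and 9.73 with Maresin 1, a difference of 0.32 (SE 0.07, adjusted p = 0.0911), and Rps13 differed by 0.26, Rpl3 by 0.20 and Rpl15 by 0.18. The median was 0.10 against control replicate 1 alone and 0.08 without it, and 0.00 for surgery alone minus the same controls. The 72 mitochondrial ribosomal protein genes had a median of 0.02.

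**Figure D5:**
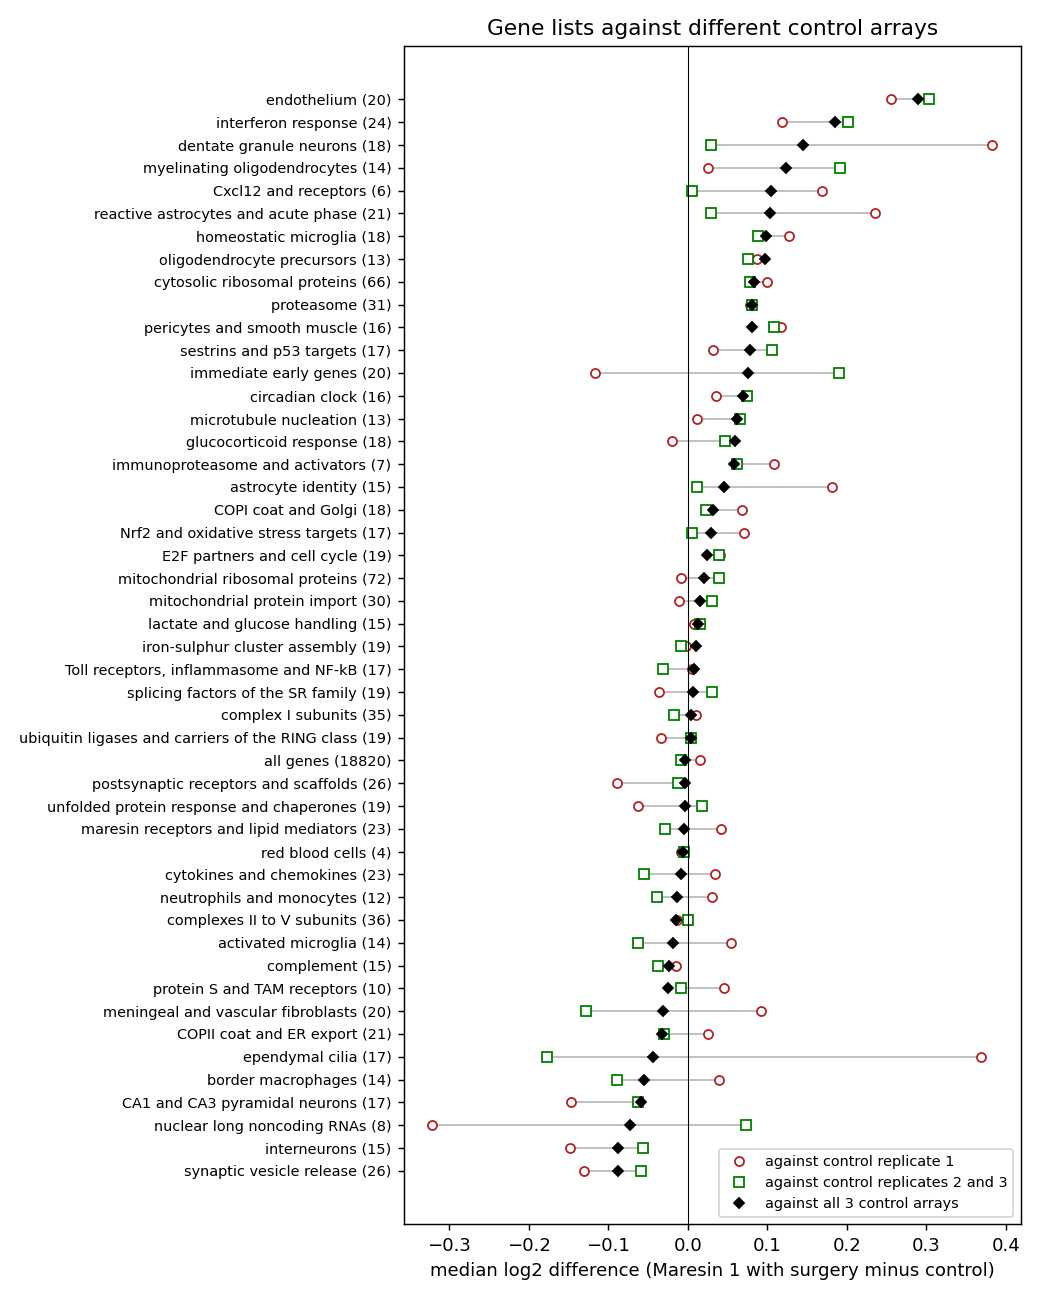
Median log2 difference of each gene list (rows, with the number of measured genes), as Maresin 1 with surgery minus control. Diamonds use all 3 control arrays, circles control replicate 1 and squares control replicates 2 and 3; the endothelium list stands at 0.29, 0.26 and 0.30, and dentate granule neurons at 0.15, 0.38 and 0.03. The choroid plexus list is left out because its values, down to -2.39, would compress the axis.

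Genes of synaptic vesicle release were mostly lower. Of 26 measured genes 21 were lower, with a median of -0.09. Lower values with an unadjusted p under 0.05 were held by 11, against 5.61% of all genes, and 10 lower genes did not overlap, against 6.71%, while 0 were called in limma. Cplx1, a complexin that regulates vesicle fusion, was at 11.70, 11.64 and 11.63 in control and at 11.46, 11.49 and 11.44 with Maresin 1, a difference of -0.19 (SE 0.04, adjusted p = 0.0832). The active zone scaffold Bsn differed by -0.25 (SE 0.05, adjusted p = 0.0916), Rims4 by -0.40 and the vesicle protein Vamp1 by -0.24. For these genes surgery alone differed from control by -0.02, -0.11, -0.06 and -0.07. The list median was -0.13 against control replicate 1 alone and -0.06 without it.

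Postsynaptic genes had a median of -0.004 over 26 genes, and of -0.09 against control replicate 1 alone. At an unadjusted p under 0.05 in limma 7 were lower and 3 higher, against 5.61% and 5.87% of all genes. Beside Synpo, the scaffold gene Dlgap4 differed by -0.22 and the auxiliary AMPA receptor subunits of the TARP family, Cacng2 and Cacng8, by -0.20 and -0.13, all without overlap and not called.

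Markers of hippocampal neuron types differed among the control arrays themselves. Dentate granule neuron genes had 14 of 18 higher and a median of 0.15, which was 0.38 against control replicate 1 alone and 0.03 without it. Their score was -0.27 in control replicate 1 and 0.13 and 0.02 in the other controls, against 0.05 to 0.16 with Maresin 1. Trpc6, a cation channel enriched in granule neurons, differed by 0.50 (SE 0.11, adjusted p = 0.109), by 0.79 from control replicate 1. Of the 17 genes of CA1 and CA3 pyramidal neurons 14 were lower, with a median of -0.06, among them the transcription factor Neurod6 at -0.26. Their median was -0.15 against control replicate 1 alone and -0.06 without it. Of 15 interneuron genes 10 were lower, with a median of -0.09, among them Nos1 (-0.25), Cck (-0.17) and Sst (-0.15), while Gad2 differed by 0.20. For interneurons too the median was -0.15 against control replicate 1 alone and -0.06 without it. None of these genes was called.

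Myelin genes had 13 of 14 higher and a median of 0.12, which was 0.03 against control replicate 1 alone and 0.19 without it. Ermn, a cytoskeletal protein of myelin sheaths, differed by 0.30 (SE 0.10, adjusted p = 0.283). In the precursor list the lineage factor Olig2 differed by -0.36 (SE 0.10, adjusted p = 0.177) without overlap, in the opposite direction to the list median of 0.10. Immediate early genes had a median of 0.08 with all controls, -0.12 against control replicate 1 and 0.19 without it. Jun differed by 0.28 without overlap, while Fos differed by 0.45 from all controls and by -0.08 from control replicate 1.

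Genes of the brain borders and of blood cells gave no call. Igf2, made by meningeal fibroblasts and choroid plexus, was at 8.88, 10.60 and 10.79 in control and at 9.31, 8.59 and 8.86 with Maresin 1, with a difference of -1.17 from all controls and 0.04 from control replicate 1. The fibroblast list had a median of -0.03 over 20 genes, which was 0.09 against control replicate 1 alone and -0.13 without it. The border macrophage list had -0.06, with 0.04 and -0.09 in the same order, over 14 genes, of which 6 lay above the olfactory receptor level. Of 12 measured neutrophil and monocyte genes 1 lay above that level on average, and no difference between groups was detectable there. Among 4 measured red cell genes Alas2, of haem synthesis, differed by 0.56 (SE 0.25, adjusted p = 0.415) and Slc4a1 by -0.10; haemoglobin genes were not analysed here.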

How the data were processed

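Affymetrix Expression Console is the software the authors used, per the submitters' processing notes (release and settings: not given in the sources used here). Deposited values are intensity, a linear brightness of each of 35556 probe sets on 9 arrays. Median signals ran from 54.1 to 100.1 between arrays, with 92 to 244 zeros per array. The precision is limited by the number of arrays, 3 in each group. Sample groups come from the titles alone.

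The 9 arrays were quantile normalised, 16 was added and log2 was taken. Of the probe sets, 21218 name 1 gene and 1881 several in GEO's platform annotation, which can be old, and the other 12457 have no gene there; 21185 matched RefSeq's gene table by identifier. The probe set with the highest mean stood for each gene, which left 18820 genes, 13363 of them above the olfactory receptor level (the 95th percentile of 990 genes). Differences were tested in R 4.3.3 by limma 3.58.1, as 1 model over all 9 arrays with a variance prior that follows the level. Calls needed an adjusted p under 0.05 (Benjamini-Hochberg, all 18820 genes together). Errors are standard errors of that model, and n is 3 per group. The steps were tested on simulated data. Alternatives covered the constant, scaling, filter, probe set rule, prior, arrays in the fit, replicate block, array weights, a choroid plexus covariate, control replicate 1 alone, the threshold and each array left out in turn. Leaving out surgery arrays was added after the data were seen.

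The members and the 48 gene lists were chosen with earlier results of these data known. Named genes follow a rule: all called genes, up to 12 higher and 12 lower genes at an adjusted p under 0.10 with a difference of at least 0.3 and no overlap, up to 4 genes of smallest p from each list, and set names of inflammation, glia and lipid mediators. Gene models, microRNA, snoRNA and olfactory, vomeronasal or taste receptor genes are excepted. The tissue markers and promoter motifs were chosen after the data were seen, and 1 further motif was searched and is not reported here.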

Additional observations from a re-analysis of the deposited data

How the results depend on the processing

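The 16 calls were also made with a constant of 1 or 64 and with the mean over probe sets. The count was 21 among genes above the olfactory receptor level and 12 with array weights. It was 38 with arrays scaled to one median, 63 with log2 values centred and 43 with no scaling. With the choroid plexus score as a covariate 5 genes were called (Stoml3, Htra4, Tm4sf1, Trpc6 and C1ql2), and with control replicate 1 alone 4, which assumes that this array varies like the other groups. Of these, Htra4 and C1ql2 were named after their values were seen. limma called 0 genes with a constant variance prior (1934 at an unadjusted p under 0.05), 0 with only the 6 arrays of both groups (1750) and 0 when tested against a difference of 0.2 (171). At an adjusted p of 0.10 the count was 91. Leaving out 1 array at a time gave 0 to 245 calls, the highest without control replicate 1. The cause of these changes was not tested. With the replicate number as a block 0 genes were called (1726 at an unadjusted p under 0.05). After group means were subtracted, same-numbered arrays of different groups correlated at -0.244 to 0.055, so no clear pairing by number was seen. The labels do not say whether the numbers pair the samples. Over all named genes and alternatives, 61 differences of uncalled genes changed sign, and none of a called gene did. The called genes had groups without overlap, so leaving out arrays could not change their sign. The contrast follows in part from how they were chosen and adds no support for the calls.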

Other observations

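The list of the glucocorticoid response, the receptor and its target genes, had 11 of 18 higher values and a median log2 difference of 0.06 between Maresin 1 with surgery and control, which was -0.02 against control replicate 1 alone. The glucocorticoid receptor gene Nr3c1 differed by 0.25 (SE 0.07, adjusted p = 0.178) and Errfi1, a feedback inhibitor of growth factor receptors, by 0.29, both without overlap, while the metallothionein gene Mt1 differed by -0.19. Of the 16 clock genes 10 were higher, with a median of 0.07, and the clock repressor Ciart differed by 0.36 (SE 0.13, adjusted p = 0.297). Among 19 splicing factors of the SR family, with a median of 0.01, Tra2a differed by 0.32 and Tra2b by 0.18 without overlap, and Tra2a by 0.12 as the mean over its 2 probe sets. Among 8 nuclear noncoding RNA genes Malat1 differed by 0.36 from all controls and by 0.08 from control replicate 1, and the list median was -0.07 with all controls and -0.32 against that array. None of these genes was called with all arrays. Without control replicate 1, which leaves only the controls with high choroid plexus signal, 245 of 18820 genes were called. Malat1 was among these, with a difference of 0.50 (limma, adjusted p = 0.0386).

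Further lists held medians near that of all genes. Nrf2 and oxidative stress targets had a median of 0.03 over 17 genes, with Prdx1 at 0.185 and Srxn1 at -0.18 without overlap. Chaperones and the unfolded protein response stood at -0.004 over 19 genes, complement at -0.02 over 15, and complexes II to V at -0.015 over 36. The COPI and Golgi list was at 0.03 over 18 genes, E2F partners at 0.02 over 19 and the ubiquitin ligases that include Rnf208 at 0.004 over 19. Astrocyte identity genes had a median of 0.045 over 15 genes, and 0.18 against control replicate 1 alone. Their list score was 0.18, -0.07 and -0.04 in the Maresin 1 arrays and -0.15, -0.002 and 0.05 in the control arrays. Genes of ependymal cilia, the cell lining of the ventricles, had a median of -0.04 over 17 genes with all controls. Against control replicate 1 alone their median was 0.37, with all 17 higher, and without it -0.18, with 4 higher.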
